A study of Homo sapiens with 24 samples.

Results

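The Krueppel-like factors examined here were 10 human genes, KLF2, KLF3, KLF4, KLF5, KLF6, KLF9, KLF10, KLF11, KLF13 and KLF16. They were taken as every non-control array probe that carried 1 of these names, which gave 11 of the 34127 non-control probes, with a pair of probes for KLF6. The cells were HCT-116, a human colorectal cancer line, and the 24 arrays were made from 1 stably transfected clone that carried a Tet repressor and a doxycycline-inducible, FLAG-tagged dominant negative Tcf4 (DN-Tcf4). DN-Tcf4 occupies Tcf sites without activating them and so lowers Wnt signaling. The 4 treatments were no agent (Ctl), 5 mM sodium butyrate (NaB), 4 µg/ml doxycycline (Doxy), and 5 mM sodium butyrate with 4 µg/ml doxycycline (DoxyNaB). The butyrate step lasted 17.5 hr. The study's methods put doxycycline before it, while the labels give 17.5 hr for both agents, so the full time in doxycycline is not known here. Each treatment was repeated in 6 experiments. All arrays came from cells with the DN-Tcf4 construct, so an effect of the drug itself and an effect of the construct cannot be told apart.

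Krueppel-like factors bind GC-rich and CACCC-type promoter elements through zinc fingers near the C-terminus and share this DNA-binding domain with the Sp factors. The rest of each protein differs and recruits either coactivators or corepressors, so that members act as activators, as repressors or as both. In the intestinal epithelium KLF5 is known from the proliferating crypt cells and KLF4 from the differentiating cells above them, while butyrate, made by bacterial fermentation of fiber, inhibits histone deacetylases.

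The promoter windows of KLF2, KLF4 and KLF9 are shown first. KLF2 and KLF9 had the largest increases with butyrate, and KLF4 the largest difference between the butyrate responses without and with doxycycline. An action of butyrate or DN-Tcf4 on these windows was not tested. RefSeq windows on GRCh38.p14 were found for 8 of the 10 genes, in 10 windows, and not for KLF3 and KLF10. Each window below is the 250 bases before the annotated start, 5′ to 3′ on the strand of the gene, with capitals at every GGGCGG or its reverse complement CCGCCC, the GC box read by Sp and Krueppel-like factors. KLF2 lies at chr19:16324576-16324825 on the plus strand, KLF4 at chr9:107489770-107490019 and KLF9 at chr9:70414658-70414907, both on the minus strand.
KLF2: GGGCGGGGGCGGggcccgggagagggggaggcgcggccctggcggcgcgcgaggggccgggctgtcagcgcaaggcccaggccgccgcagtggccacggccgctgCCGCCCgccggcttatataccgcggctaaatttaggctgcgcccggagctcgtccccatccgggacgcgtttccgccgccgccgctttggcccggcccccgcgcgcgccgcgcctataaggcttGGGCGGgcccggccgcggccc
KLF4: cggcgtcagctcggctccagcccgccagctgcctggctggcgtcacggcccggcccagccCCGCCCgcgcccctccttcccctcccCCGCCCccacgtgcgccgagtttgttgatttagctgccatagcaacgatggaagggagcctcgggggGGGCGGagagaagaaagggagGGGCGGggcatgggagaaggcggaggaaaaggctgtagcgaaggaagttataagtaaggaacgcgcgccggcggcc
KLF9: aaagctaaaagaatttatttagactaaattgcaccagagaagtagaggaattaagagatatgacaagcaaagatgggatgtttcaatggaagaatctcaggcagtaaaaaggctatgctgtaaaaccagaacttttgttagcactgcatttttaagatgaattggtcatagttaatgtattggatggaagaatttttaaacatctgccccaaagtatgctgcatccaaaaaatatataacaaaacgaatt

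The KLF2 window held 4 GC boxes at 80% G and C, the KLF4 window held 4 at 69.2%, and the KLF9 window held none at 32.4%. The median G and C content over all 35116 windows of this length was 58%. A GC box on either strand was present in 8 of the 10 member windows, against 42.6% of all windows, and KLF16 had the most, 7 in 1 window. The CACCC element was found in 4 of the 10 (of KLF5, KLF11 and KLF13), against 54.7% of all windows. The Tcf-type words CTTTGAT and CTTTGAA occurred in 0 and 1 of the 10, the 1 being KLF6, and in 2.26% and 3.8% of all windows. A match is a string of letters in a window and was not tested as a binding site.

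The 10 member probes listed here are 60-base oligonucleotides placed by the array's annotation on NCBI36. The KLF2 probe lies at chr19:16299246-16299305, KLF3 at chr4:38378913-38378972, KLF4 at chr9:109287870-109287929, KLF5 at chr13:72548980-72549039, KLF9 at chr9:72189657-72189716, KLF11 at chr2:10112097-10112156, KLF13 at chr15:29457200-29457259 and KLF16 at chr19:1803399-1803458. The KLF6 probes lie at chr10:3811387-3811446 and chr10:3817370-3817429. Exon and UTR annotation of that build was not used here. Among these 10 probes (the KLF10 probe is not reported here), the KLF4 probe was the only 1 that met both of the following conditions. It can be read through without a stop codon, and it has the spacing of cysteine and histidine codons of a zinc finger. It is shown because it lies in the domain that all family members share, and its capitals mark the codons for that cysteine pair and the first histidine.
KLF4 probe: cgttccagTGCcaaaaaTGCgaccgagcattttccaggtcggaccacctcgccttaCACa

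Every member was measured throughout. Each of the 11 probes exceeded background on each of the 24 arrays and was among the 18962 probes tested. Levels are log2 of the background-corrected intensity over the 75th percentile of the same array, so 0 is the brightness of the probe at that percentile, and a level says nothing about 1 gene against another. The 75th percentile ranged from 380.2 to 1323 intensity units over the arrays, and 52.5% to 88.1% of spots were well above background. Negative control spots had a net signal of at most 248.9 units, with NaB of experiment 3 and DoxyNaB of experiment 2 the highest. These 2 are the pair with high negative controls that is left out below. NaB of experiments 2 and 4 and DoxyNaB of experiment 4 followed at 110.9 to 114.6 units and were kept. Arrays without butyrate had at most 79.6, so leaving out the pair does not even out the background between treatments. In experiment 1 the arrays with butyrate were on another slide and scan than those without, so there butyrate and slide cannot be told apart. In experiments 2 to 6 each slide held all 4 treatments.

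The HCT-116 label was checked on 8 epithelial genes, of which 6 could be tested, with LGALS4 and VIL1 too dim. KRT8, KRT18, KRT19, CDH1 and CDX2 were well above background on all 24 arrays and EPCAM on 22. EPCAM and CDX2 were lower with butyrate, with log2 changes of −1.45 (adjusted p = 3.61e-05, limma) and −0.67 (adjusted p = 2.6e-05) in NaB/Ctl. KRT8 (0.63, adjusted p = 3.42e-06), KRT19 (0.97, adjusted p = 1.38e-07) and CDH1 (0.99, adjusted p = 1.03e-07) were higher. KRT18 (0.12, adjusted p = 0.0857) did not pass, so these markers had no common direction. Of 8 marker genes of blood, stromal and endothelial cells 3 were tested, and the summed intensity of these 3, as a multiple of the 75th percentile, ran from 0.318 to 0.585 in Ctl, 0.434 to 1.36 in NaB, 0.272 to 0.633 in Doxy and 0.845 to 1.73 in DoxyNaB. COL1A1 rose with butyrate. VWF was above background on 3 of 6 Ctl and 4 of 6 Doxy arrays and on 6 of 6 in NaB and in DoxyNaB. It thus passed the filter through the butyrate groups, and its call is not read as support for a rise. PTPRC, CD3E, COL1A2, DCN and PECAM1 were too dim to test. The part of these markers in the results was not tested. TCF7L2, the gene of Tcf4, had 3 probes. The brightest of them under the combined agents ran from 0.54 to 1.92 on the log2 scale in DoxyNaB, with medians of −2.64 in Doxy, −1.49 in NaB and −1.86 in Ctl. DoxyNaB stood clear of the other treatments, while Doxy differed from Ctl by −0.17 (adjusted p = 0.921, limma) and did not pass. A second probe was above background on 6 of 6 DoxyNaB arrays but on 3 in Doxy, 3 in NaB and 1 in Ctl, so its changes have no exact size. The third went the other way and fell by 1.70 on the log2 scale in DoxyNaB/Doxy.

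**Figure D1:**
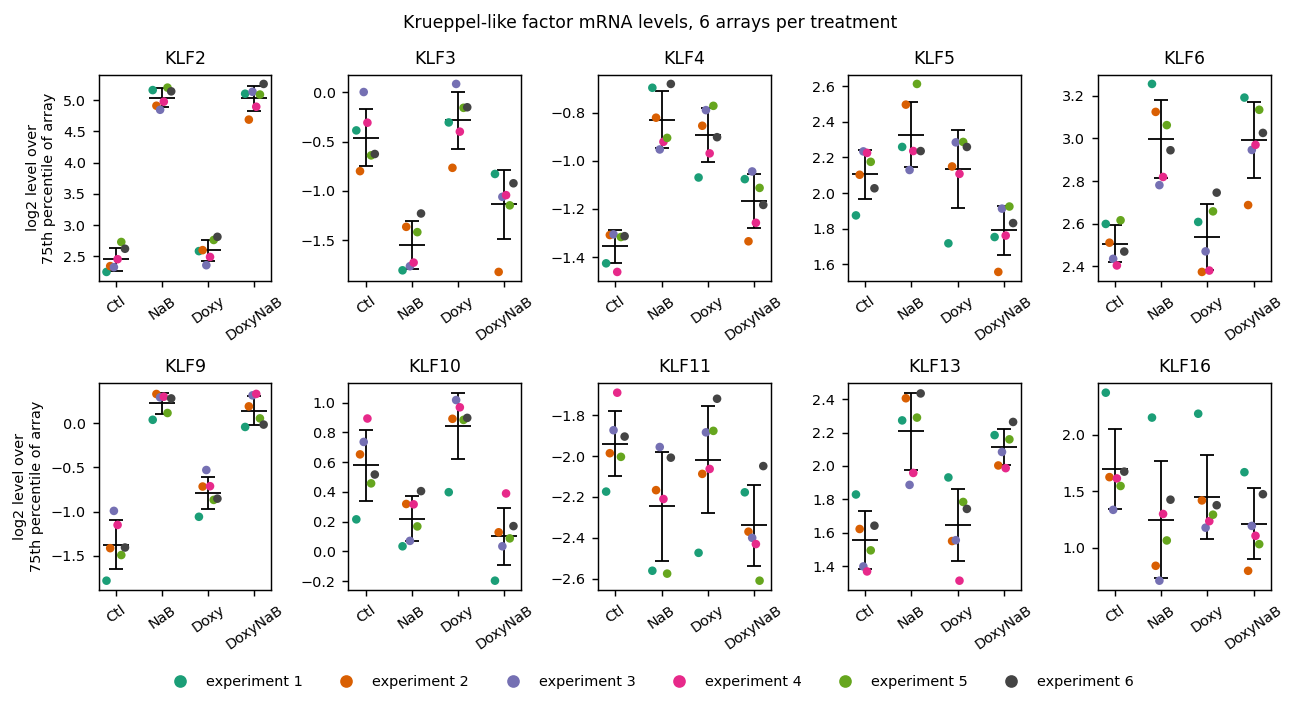
Level of each gene (y axis, log2 over the 75th percentile of the array) in the 4 treatments (x axis). Each point is 1 array coloured by experiment, and the bar and whiskers are the mean and SD of 6 arrays. KLF2 and KLF9 stand clearly higher with butyrate, KLF3 stands lower, and KLF4 is lowest in Ctl. KLF6 is drawn from its brighter probe.

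Butyrate without doxycycline changed 3 of the 10 genes past both a 2-fold limit and an adjusted p of 0.01. KLF2 and KLF9 rose and KLF3 fell. The same rule called 31.7% of all tested probes (20.7% higher and 11% lower), so 3 of 10 is near the background and is no result about the family. At an adjusted p under 0.01 with no demand on the fold, 5 genes rose (KLF2, KLF4, KLF6, KLF9 and KLF13) and 3 fell (KLF3, KLF10 and KLF16), against 68.3% of all probes (40.1% higher and 28.2% lower). The levels of 6 of the 10 genes did not overlap between NaB and Ctl, against 43.1% of all probes. The median log2 change was 0.36 over the 10 genes and 0.17 over all tested probes. In the text below "rose" and "fell" mean an adjusted p under 0.01 from limma over all 18962 probes, and "changed" with butyrate adds the 2-fold limit.

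KLF2, which in endothelium and lymphocytes is known for holding cells quiescent, had the largest response of the family. In Ctl its level ranged from 2.25 to 2.73 with a median of 2.40, and in Doxy from 2.36 to 2.81 with a median of 2.59. In NaB it ranged from 4.85 to 5.20 with a median of 5.06, and in DoxyNaB from 4.69 to 5.26 with a median of 5.10. The butyrate arrays lay above all arrays without butyrate, and the arrays with and without doxycycline overlapped. KLF2 was 6.01-fold higher in NaB/Ctl (log2 change 2.59, SE 0.077, adjusted p = 6.12e-15) and 5.39-fold higher in DoxyNaB/Doxy (2.43, adjusted p = 1.2e-14), in 6 of 6 experiments each. It was the 1 member that passed the 2-fold limit in both comparisons. The responses differed by 0.16 (95% interval −0.07 to 0.39, adjusted p = 0.634), and DoxyNaB/NaB gave −0.01 (interval −0.17 to 0.15). The KLF2 probe is printed in 10 spots, whose log2 signals within an array had an SD of 0.032 to 0.177. This is the spread within an array and does not cover that between experiments. Within experiments 2 to 4 the NaB/Ctl change was 2.54 and within 5 and 6 it was 2.50.

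KLF9, a thyroid hormone- and glucocorticoid-responsive repressor, was the other gene that rose more than 2-fold. Its level in Ctl ranged from −1.78 to −0.99 with a median of −1.41, and in NaB from 0.04 to 0.33 with a median of 0.29. In Doxy it ranged from −1.06 to −0.53 with a median of −0.79, and in DoxyNaB from −0.04 to 0.33 with a median of 0.12. NaB and DoxyNaB overlapped nearly in full, Doxy overlapped the top of Ctl, and both lay below the butyrate arrays. The change was 3.03-fold in NaB/Ctl (log2 1.60, SE 0.064, adjusted p = 2.03e-13) and 1.9-fold in DoxyNaB/Doxy (log2 0.93, adjusted p = 2.94e-10), again in 6 of 6 experiments. The KLF2 and KLF9 windows printed above, the richest and the poorest in G and C of the 3 shown, belong to the members with the largest increases.

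KLF3, a repressor that recruits CtBP, moved the other way. In Ctl it ranged from −0.80 to 0.00 with a median of −0.51, in Doxy from −0.77 to 0.09 with a median of −0.23, in NaB from −1.80 to −1.23 with a median of −1.57, and in DoxyNaB from −1.82 to −0.83 with a median of −1.05. Butyrate arrays did not overlap their controls. The level in NaB was 0.469 of that in Ctl (log2 change −1.09, SE 0.15, adjusted p = 3.52e-06), and in DoxyNaB 0.553 of that in Doxy (−0.85, adjusted p = 6.02e-05). The single experiments spread from −1.77 to −0.56 in NaB/Ctl, the widest of any member. The change missed the 2-fold limit with normexp background correction (−0.88), without experiment 3 (−0.96), within experiments 5 and 6 (−0.69), and without the pair of arrays with high negative controls (−0.99). The difference of the butyrate responses was −0.24 (interval −0.69 to 0.22, adjusted p = 0.742).

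KLF6 and KLF13 rose by less than 2-fold with butyrate in either setting. KLF6 is a widely expressed, injury-induced activator and KLF13 an activator in T cells that represses elsewhere. The brighter KLF6 probe had medians of 2.49 in Ctl, 3.00 in NaB, 2.54 in Doxy and 3.00 in DoxyNaB, and NaB (2.78 to 3.26) did not overlap Ctl (2.40 to 2.62). Its log2 change was 0.49 in NaB/Ctl (adjusted p = 8.45e-06) and 0.45 in DoxyNaB/Doxy (adjusted p = 2.24e-05), and the other KLF6 probe gave 0.55 and 0.58. KLF13 had medians of 1.56 in Ctl, 2.28 in NaB, 1.65 in Doxy and 2.12 in DoxyNaB, and the butyrate arrays did not overlap their controls. It rose by 0.65 on the log2 scale in NaB/Ctl (adjusted p = 2.87e-07) and 0.47 in DoxyNaB/Doxy (adjusted p = 1.67e-05). Neither gene gave a difference of responses that passed, with 0.04 for KLF6 (interval −0.18 to 0.26) and 0.18 for KLF13 (−0.04 to 0.40).

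KLF10 and KLF11 are the TGF-beta-inducible early genes, repressors that work through Sin3A, and KLF16 is a related short repressor. KLF10 had medians of 0.59 in Ctl, 0.24 in NaB, 0.90 in Doxy and 0.11 in DoxyNaB. NaB overlapped Ctl, while DoxyNaB (−0.20 to 0.39) lay just below Doxy (0.40 to 1.02). The log2 change was −0.36 in NaB/Ctl (adjusted p = 0.000206) and −0.74 in DoxyNaB/Doxy (adjusted p = 3.65e-08). KLF10 was higher in Doxy than in Ctl in 6 of 6 experiments, by 0.26 (adjusted p = 0.0882), and the responses differed by 0.38 in the same direction in 6 of 6 (adjusted p = 0.0646), neither of which passed. KLF11 differed by −0.31 in NaB/Ctl (adjusted p = 0.0159) and −0.32 in DoxyNaB/Doxy (adjusted p = 0.0123) and did not pass. KLF16 fell by 0.45 on the log2 scale in NaB/Ctl (adjusted p = 0.000801) and differed by −0.24 in DoxyNaB/Doxy (adjusted p = 0.0477). The falls of KLF10 and KLF16 in NaB/Ctl did not pass without pairing by experiment (adjusted p = 0.0123 and 0.0835) or with normexp (0.0144 and 0.0904).

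The size of these butyrate responses depends on the reference of the array. Scaled to the median in place of the 75th percentile, the median log2 change of all tested probes in NaB/Ctl moved from 0.17 to −0.58. The NaB/Ctl values then were −0.22 for KLF4, −0.53 for KLF5, −0.26 for KLF6 and −0.10 for KLF13, so the mean change of these genes turned. KLF2 (1.84) and KLF9 (0.85) stayed higher and KLF3 (−1.84) lower. The changes called at 2-fold were then 1 higher (KLF2) and 4 lower (KLF3, KLF10, KLF11 and KLF16). The share of all probes called under the median is not given here, so this count is no result about the family. The array medians did not move alike in all experiments. In experiment 3 the median signal was 129.4 units in Ctl and 363.7 in NaB. In experiment 5 it was 45.9 and 46.6. The negative control net signal in Ctl and NaB was 68.4 and 161 units in experiment 3, and 49.5 and 49.9 in experiment 5. The part of single experiments and of background in the turned values was not tested. The distance from the median change of all probes is by construction the same under both references, with KLF2 2.42 above it, KLF9 1.43, KLF13 0.48, KLF4 0.36 and KLF6 0.32 above it, KLF5 0.05 above it, and KLF3 1.26 below it.

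**Figure D2:**
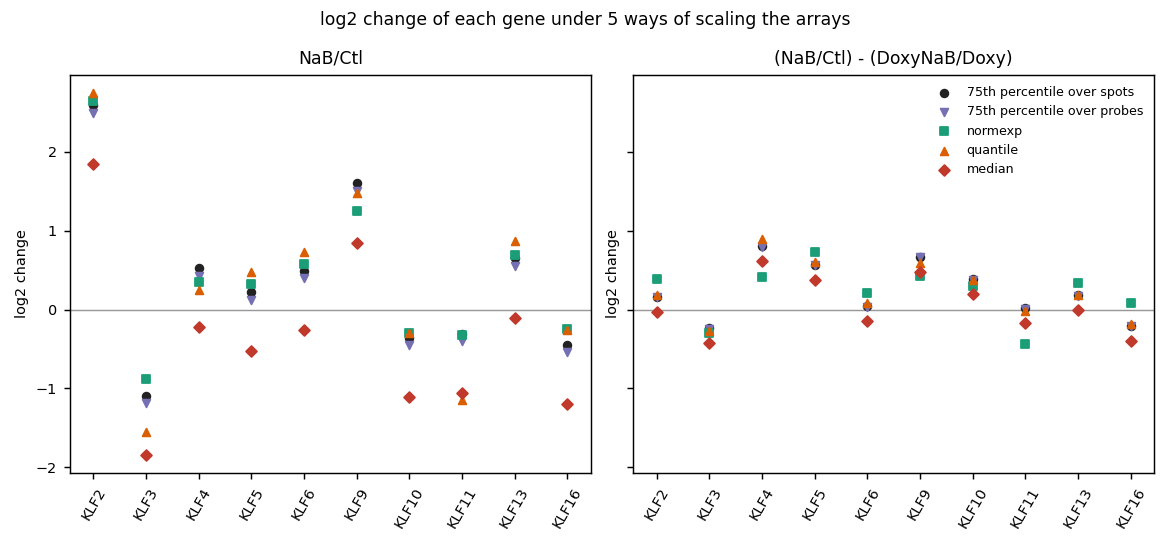
log2 change of each gene (y axis) in NaB/Ctl (left) and as the difference of butyrate responses (right) under 5 ways of scaling the arrays (symbols). KLF2 and KLF9 stay above 0 and KLF3 below 0 at left under all 5, while KLF4, KLF5, KLF6 and KLF13 turn to −0.22, −0.53, −0.26 and −0.10 with the median. At right KLF4, KLF5, KLF9 and KLF10 stay above 0 under all 5.

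In the presence of doxycycline butyrate changed 1 of the 10 genes, KLF2, against 30.6% of all tested probes (18.3% higher). At the adjusted p alone 4 genes rose (KLF2, KLF6, KLF9 and KLF13) and 4 fell (KLF3, KLF4, KLF5 and KLF10), 8 of 10 against 67% of all probes (37.3% higher and 29.7% lower). For 5 of the 10 genes DoxyNaB and Doxy did not overlap, against 41.5% of all probes. KLF4 thus rose in 1 setting and fell in the other under the 75th percentile. The KLF4 rise in NaB/Ctl was lost under normexp (0.35, adjusted p = 0.031), and quantile normalization lost it too (0.25, adjusted p = 0.324). Its fall in DoxyNaB/Doxy was lost under normexp (−0.055, adjusted p = 0.727), as well as after quantile normalization (−0.65, adjusted p = 0.0133) and by the adjusted methods' t-test (also adjusted p = 0.0133). The KLF5 fall did not pass under these 3 either (adjusted p of 0.017 to 0.143). The median log2 change was −0.26 over the 10 genes and 0.10 over all probes.

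**Figure D3:**
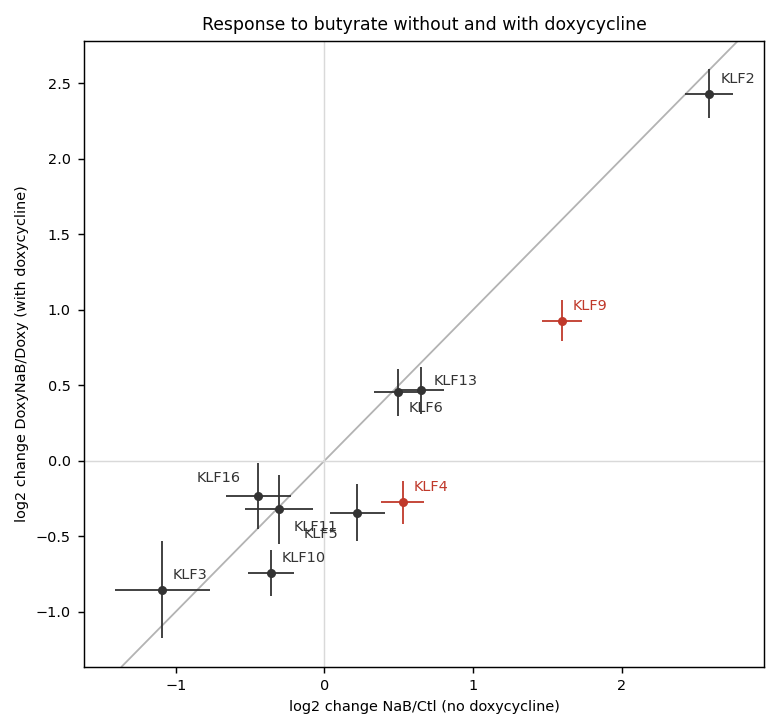
Response to butyrate with doxycycline (y axis, log2 change DoxyNaB/Doxy) against that without it (x axis, log2 change NaB/Ctl) for the 10 genes. Whiskers are 95% intervals from limma, the grey diagonal marks equal responses, and red marks KLF4 and KLF9, whose responses differed at an adjusted p under 0.01. KLF2, KLF6 and KLF13 lie near the diagonal, and KLF4 and KLF5 lie below 0 on the y axis and above 0 on the x axis, the x values turning sign when arrays are scaled to the median.

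The question behind the design was whether a butyrate response is altered when DN-Tcf4 is induced. It was approached by the difference of the 2 responses within an experiment, which cannot tell the drug from the construct. The study's western blot showed little DN-Tcf4 with doxycycline alone and high levels with both agents. Its reporter assay nevertheless gave a lower Wnt activity ratio with doxycycline alone than in untreated cells. Among the Wnt targets it lists, Axin2 and BMP4 were significantly lower with doxycycline alone and Sox9 higher. The rest were not significant there, so Wnt signaling in Doxy cannot be taken as unaltered. The difference of responses passed an adjusted p under 0.01 for 2 of the 10 genes, KLF4 and KLF9, against 1.24% of all tested probes (1.02% in this direction). In both the response was more positive without doxycycline, in 6 of 6 experiments. KLF5 gave 0.57 in the same direction in 6 of 6 experiments (interval 0.30 to 0.83, adjusted p = 0.0199) and missed the threshold. KLF5 did pass with quantile normalization (0.60, adjusted p = 0.00398), with slide as a block (adjusted p = 0.00948) and without the pair of arrays with high negative controls (adjusted p = 0.00531). For the other genes the difference ran from −0.24 (KLF3) to 0.38 (KLF10), and none passed.

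**Figure D4:**
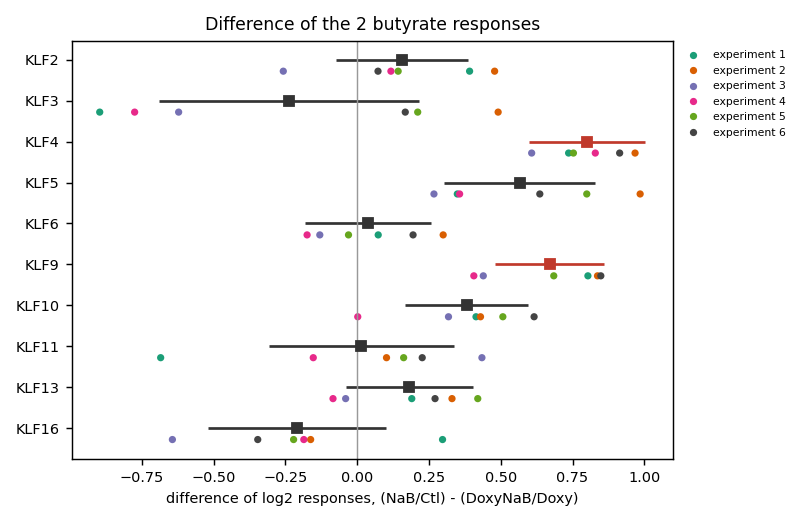
Difference of the butyrate responses, (NaB/Ctl) minus (DoxyNaB/Doxy), on the log2 scale (x axis) for each gene (y axis). Squares are the limma estimates with 95% intervals, red where the adjusted p was under 0.01, and the small points below are the 6 experiments. All 6 experiments lie above 0 for KLF4, KLF5, KLF9 and KLF10.

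KLF4, known from growth arrest and goblet cell differentiation in the colon, showed the largest difference, 0.80 (SE 0.096, interval 0.60 to 1.00, adjusted p = 8.61e-05). In Ctl its level ranged from −1.46 to −1.31 with a median of −1.32, and in NaB from −0.95 to −0.68 with a median of −0.86. In Doxy it ranged from −1.07 to −0.77 with a median of −0.88, and in DoxyNaB from −1.33 to −1.04 with a median of −1.15. NaB did not overlap Ctl, and Doxy and DoxyNaB overlapped in part. KLF4 rose 1.44-fold in NaB/Ctl (log2 0.53, adjusted p = 1.4e-06), in 6 of 6 experiments. In DoxyNaB it fell to 0.826 of Doxy (log2 −0.28, adjusted p = 0.00136). The sign of this fall was shared by 6 of 6 experiments, but in experiment 1 the value was −0.0068, nearly no change. In order of mean level the treatments ran Ctl, DoxyNaB, Doxy, NaB. Ctl and DoxyNaB overlapped and differed by 0.19 (adjusted p = 0.0188), and Doxy and NaB by 0.06 (adjusted p = 0.408), so these neighbours did not pass.

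The difference for KLF4 was 0.80 within experiments 2 to 4 and 0.83 within 5 and 6, where with fewer arrays the adjusted p was 0.133 and 0.185. It ran from 0.77 to 0.84 when 1 experiment was left out and passed each time. Its direction held under every scaling tried, but it did not pass with normexp background correction (0.41, adjusted p = 0.565), quantile normalization (0.90, adjusted p = 0.21) or the median (0.61, adjusted p = 0.984).

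For KLF9 the difference was 0.67 (SE 0.09, interval 0.48 to 0.86, adjusted p = 0.000251), and it was 0.56 within experiments 2 to 4 (adjusted p = 0.423) and 0.77 within 5 and 6 (adjusted p = 0.173). Here the levels under butyrate were alike with and without doxycycline, with DoxyNaB/NaB at −0.09 (interval −0.22 to 0.05, adjusted p = 0.594), and the arrays without butyrate differed. The KLF9 difference passed with quantile normalization (0.58) but not with normexp (0.43) or the median (0.48), nor in the fit without pairing by experiment (adjusted p = 0.054).

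KLF5, a growth-promoting factor of the crypt, showed the reverse layout. In Ctl it ranged from 1.87 to 2.23 with a median of 2.14, in NaB from 2.13 to 2.61 with a median of 2.25, in Doxy from 1.72 to 2.29 with a median of 2.20, and in DoxyNaB from 1.56 to 1.92 with a median of 1.80. DoxyNaB lay below NaB without overlap. The Doxy array of experiment 1, at 1.72, lay apart from the other Doxy arrays, and without that experiment the difference of responses was 0.61 (adjusted p = 0.0252).

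**Figure D5:**
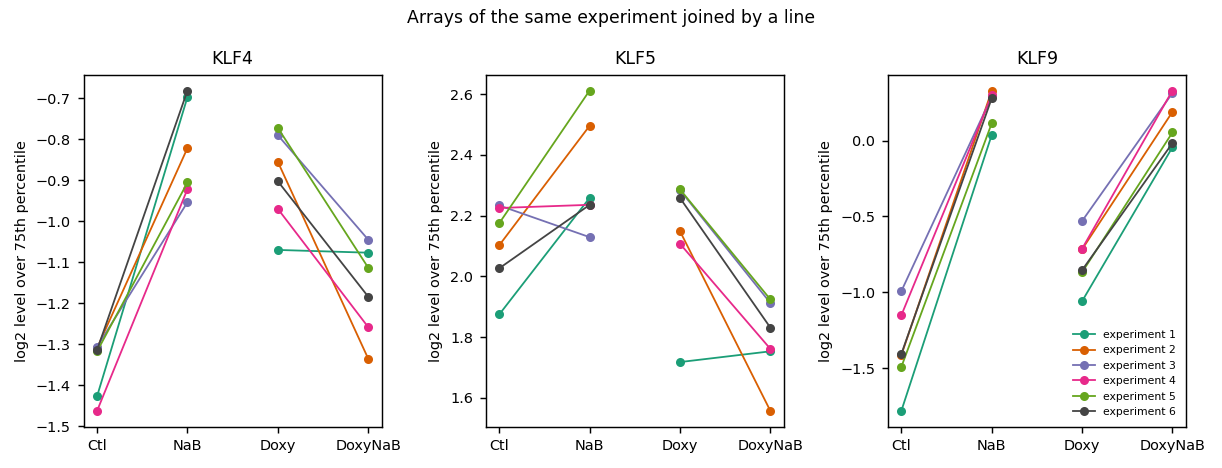
Levels of KLF4, KLF5 and KLF9 (y axis, log2 over the 75th percentile of the array) in the 4 treatments (x axis), with a line joining the arrays of 1 experiment without butyrate to those with it. KLF4 lines climb without doxycycline in 6 of 6 experiments. With doxycycline they go down, except that the line of experiment 1 is nearly flat (−0.0068). KLF9 lines climb in both and less with doxycycline. The mean change of KLF4 without doxycycline turns to −0.22 when arrays are scaled to the median.

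With doxycycline alone few probes passed, and 2 of them were in this family. In Doxy/Ctl 2 of the 10 genes rose, KLF4 and KLF9, against 0.501% of all tested probes (95 of 18962, with 0.411% higher). The levels of KLF4 in Doxy did not overlap those in Ctl, a layout seen in 0.949% of all probes. KLF4 rose 1.38-fold (log2 0.46, SE 0.068, interval 0.32 to 0.61, adjusted p = 0.00106) and KLF9 1.5-fold (log2 0.58, SE 0.064, interval 0.45 to 0.72, adjusted p = 5.71e-05), each in 6 of 6 experiments. Of the other members KLF10 and KLF16 came closest, at 0.26 (adjusted p = 0.0882) and −0.25 (adjusted p = 0.315). TCF7L2 did not pass in Doxy/Ctl at any of its 3 probes.

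Without experiment 4 or 5 the KLF4 value of 0.46 or 0.45 did not pass (adjusted p = 0.019 and 0.018), and KLF9 passed with any 1 experiment left out. Neither gene passed with normexp (0.27 and 0.34) or the median (0.38 and 0.50), and with quantile normalization KLF9 did (0.49) and KLF4 did not (0.39). KLF9 did not pass without pairing by experiment (adjusted p = 0.0184). Doxy/Ctl shares its arrays with the difference of responses, so the values for the same genes in both are not independent.

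With doxycycline added to butyrate 2 of the 10 genes fell, KLF4 and KLF5, against 2.48% of all tested probes (1.87% lower). For both genes the arrays of DoxyNaB and NaB did not overlap, a layout seen in 1.66% of all probes. KLF5 fell to 0.689 of its level in NaB (log2 −0.54, SE 0.089, interval −0.72 to −0.35, adjusted p = 0.000932) and KLF4 to 0.791 (log2 −0.34, interval −0.48 to −0.20, adjusted p = 0.0055), each in 6 of 6 experiments. Of the TCF7L2 probes above background on all NaB arrays, 1 was higher in this comparison (log2 2.96, adjusted p = 3.64e-05) and 1 lower (−1.25, adjusted p = 0.00568). Within experiments 2 to 4 and within 5 and 6 KLF5 gave −0.54 and −0.55 (adjusted p = 0.2 and 0.168) and KLF4 −0.31 and −0.36 (adjusted p = 0.382 and 0.29), none of which passed. The KLF4 call was lost when any 1 of experiments 1, 2, 4, 5 and 6 was left out (adjusted p of 0.0115 to 0.0491) and without pairing (0.0134), and the KLF5 call without experiment 5 (0.0141). Neither gene passed with normexp (KLF4 −0.14 and KLF5 −0.64) or scaling to the median (−0.23 and −0.43), and with quantile normalization KLF5 did (−0.55) and KLF4 did not (−0.51). KLF3 was 0.41 higher with both agents than with butyrate alone (interval 0.09 to 0.73, adjusted p = 0.158), which did not pass.

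For each member the tested probe of another named gene that followed it most closely over the 24 arrays, after centring each experiment, is a description of likeness in which the 4 treatments are shared. KLF2 went with STOML1 (r = 0.998), and 4152 probes had an r over 0.9 with it. KLF9 went with HEY1 (0.98), KLF6 with CPEB4 (0.98), KLF13 with ZNF266 (0.97), KLF10 with SLC7A11 (0.96), KLF3 with THAP12 (0.96), KLF16 with MBD3 (0.94) and KLF11 with HAUS7 (0.87). KLF11 had 0 probes with an r over 0.9 and KLF16 had 6. KLF4 and KLF5 had 1 each, LMO4 (0.91) for KLF4, with log2 changes of 0.66 in NaB/Ctl and −0.28 in DoxyNaB/Doxy, and ANXA1 (0.94) for KLF5, with 0.29 and −0.42.

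The partners of the family were read from fixed lists. Of the 17 remaining Krueppel-like and Sp factors 14 could be tested, and 6 rose more than 2-fold in NaB/Ctl (KLF7, KLF8, KLF14, SP4, SP5 and SP8). By the same rule 20.7% of all tested probes were higher. The highest log2 values were 2.49 for KLF14, 2.44 for KLF8 and 2.20 for SP5. KLF8 and KLF14 were above background on 2 and 3 of 6 Ctl arrays and on 6 of 6 NaB arrays, so they passed the filter through the butyrate groups. Their calls are therefore not read as support for a rise, and no order is read from their values. The lowest were −0.90 for SP3, −0.71 for SP1 and −0.05 for SP2, and SP1 and SP3, the common GC box factors, fell. SP5, a Wnt target gene, was the 1 of the 14 whose response differed with doxycycline, with 2.20 in NaB/Ctl, 0.64 in DoxyNaB/Doxy and a difference of 1.56 (adjusted p = 8.23e-08), larger than that of any member.

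Among 10 cofactors, all tested, the corepressors CTBP1 and CTBP2 were the 2 that changed, both lower, by −1.15 and −1.45 in NaB/Ctl and −1.04 and −1.69 in DoxyNaB/Doxy. They are the partners of KLF3, which also fell. In NaB/Ctl 31.7% of all tested probes changed, so 2 of 10 is no result about the cofactors. KAT2B (0.96, above background on 3 of 6 Ctl arrays), SIN3B (0.57) and EP300 (0.18) had the highest values and CREBBP (−0.49) the next lowest, and of these SIN3B rose. Among 5 genes that act on the stability of KLF proteins, SIAH1 (−1.04) and the deubiquitinase USP3 (−1.08) fell more than 2-fold in NaB/Ctl. By that rule 11% of all tested probes were lower. WWP1 (0.12), BTRC (0.08) and FBXW7 (−0.01) did not pass.

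Upstream of the family, 12 of 15 listed genes were tested. TGFB1 rose by 1.19 on the log2 scale in NaB/Ctl and by 0.45 in DoxyNaB/Doxy (difference 0.74, adjusted p = 0.000909). The receptor TGFBR2 changed by −1.13 and −1.66 (difference 0.52, adjusted p = 0.00805) and the mediator SMAD3 by −2.31 and −1.71 (difference −0.60, adjusted p = 0.0208, not passed). MEF2C (0.82) and MEF2D (0.79), which activate KLF2 in endothelium, were next highest and rose, and SMAD2 (−0.31) was next lowest and did not pass. With doxycycline added to butyrate TGFB1 (−0.68), TGFBR2 (−0.48) and MAPK7 (−0.39), the kinase above MEF2 in that pathway, fell, and SMAD3 (0.66) rose. In NaB/Ctl MAPK7 had risen by 0.42, and KLF2 gave −0.01 in DoxyNaB/NaB.

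Of 19 listed target genes 13 were tested, and in NaB/Ctl 2 rose and 5 fell by more than 2-fold. By the same rule 20.7% of all tested probes were higher and 11% lower. The cell cycle inhibitor CDKN1C (3.33) and the polyamine enzyme ODC1 (1.75) were highest, followed by CDH1 (0.99), which rose by less than 2-fold. CDK1 (−2.05), CCND1 (−1.98), BIRC5 (−1.84), CCNB1 (−1.73) and PDGFA (−1.18), genes of proliferation and survival, were lower. CDKN1A, a KLF4 target, rose by 0.57 in NaB/Ctl and 0.68 in DoxyNaB/Doxy. The difference of responses passed for CCND1 (1.04, adjusted p = 0.000201) and EGFR (0.94, adjusted p = 0.000205), which were lower with butyrate in both settings and more so with doxycycline. EGFR was above background on 5 of 6 NaB and 4 of 6 DoxyNaB arrays, so the size of its difference is uncertain. In Doxy/Ctl 0 of the 54 genes tested in these lists passed with limma, where 9 had an unadjusted p under 0.05, and 0 passed with the methods' t-test after adjustment, where 14 had one.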

How the data were processed

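Total RNA from 24 cultures was labelled with 1 dye and hybridised to Agilent human 4x44K arrays. The authors deposited the scanner files of Agilent Feature Extraction 9.5.3.1, and per the file headers the signal used is a background-corrected fluorescence intensity on a linear scale, not yet scaled between arrays. Signals were taken over unflagged non-control spots, divided by the 75th percentile of the array, brought to log2 and averaged over the spots of a probe. These log2 levels were computed from the deposited intensities. Background subtraction makes dim probes noisy, and the reference probe sets every sign of a small change.

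A probe was tested (18962 in all) where 1 or more treatments had all 6 arrays above background by the scanner's flag. limma 3.58.1 in R 4.3.3 fitted all 24 arrays with the treatments and the experiment number as a block, since the methods paired the samples, and Benjamini-Hochberg adjustment ran over all tested probes. The labels call the repeats experiments and the study calls them biological replicates. The deviations of same-numbered arrays correlated from −0.22 to 0.851 over 36 pairs, with 1 pair below 0. The methods' own test was a paired t-test, with GeneSpring GX. With several probes the gene was represented by that of the highest mean level, and both KLF6 probes are given. "Changed" with butyrate is over 2-fold at an adjusted p under 0.01, and for other comparisons an adjusted p under 0.01. From the partner lists those past the threshold and the 3 highest and 3 lowest in NaB/Ctl are named. A marker gene of the list of other cell types is not reported here. The scripts were tested on simulated data. The members, lists and tests were chosen with earlier results of these data known, so no count over them is independent support. Alternatives were another background correction, scaling, filter, block and test, and leaving out experiments. The scaling by the percentile over probes was chosen after seeing the data. The number of arrays limits the precision.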

Additional observations from a re-analysis of the deposited data

Results flagged for a closer look

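In 5 of 44 groups of 6 levels 1 array lay far from the rest, where chance alone flags about 1 in 20 groups. These were KLF3 in DoxyNaB of experiment 2 (−1.82, the nearest array at −1.15), KLF5 in Doxy of experiment 1 (1.72, nearest 2.11), KLF10 in Doxy of experiment 1 (0.399, nearest 0.885), KLF16 in Ctl of experiment 1 (2.37, nearest 1.67) and KLF16 in Doxy of experiment 1 (2.19, nearest 1.42). Of the 5 values 4 come from the slide that held the arrays without butyrate of experiment 1, and DoxyNaB of experiment 2 has the highest negative control signal of all arrays, 248.9. KLF16 was also highest in experiment 1 in NaB (2.15, nearest 1.43) and in DoxyNaB (1.67, nearest 1.47), whose arrays were on another slide. The part of slide, experiment and background in these values was not tested. The butyrate response differed without and with doxycycline, by the test of the difference itself, for KLF4 (0.80) and KLF9 (0.67).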

How the results depend on the processing

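In NaB/Ctl 3 genes changed, and the alternatives gave 2 to 4 apart from scaling to the median (5), and 2 to 3 leaving out an experiment. In DoxyNaB/Doxy 1 changed, with 3 under the median and 4 at a fold over 1.5, and 1 with any 1 experiment left out. In Doxy/Ctl 2 passed, with 0 under normexp, the median, the adjusted methods' t-test, experiments 2 to 4 and experiments 5 and 6, 1 under quantile normalization and with only the arrays compared, 4 under the unadjusted methods' t-test, and 1 to 2 leaving out an experiment. In DoxyNaB/NaB 2 passed, with 0 under normexp, the median, only the arrays compared, the adjusted t-test and either subset of experiments, 1 under quantile normalization, no filter and the percentile over probes, and 0 to 2 leaving out an experiment. For the difference of responses 2 passed, with 0 under normexp, the median, the adjusted t-test and either subset, 4 under the unadjusted t-test, 3 (with KLF5) with slide as block and without the arrays of high negative controls, and 2 with any 1 experiment left out. Quantile normalization also gave 2, with KLF5 in place of KLF4. Without the replicate block the counts were 3, 1, 1, 1 and 1 in the same order, so the block decided KLF9 in Doxy/Ctl and in the difference, and KLF4 in DoxyNaB/NaB, and at the adjusted p alone KLF10 and KLF16 in NaB/Ctl. Signs turned only under scaling to the median, in NaB/Ctl for KLF4 (−0.22), KLF6 (−0.26 and, at the other probe, −0.20) and KLF13 (−0.10), and in DoxyNaB/Doxy for KLF6 (−0.11) and KLF13 (−0.092), among values that had passed. Fewer arrays enter the subsets, and for the other losses the cause was not tested. The shares of all probes called under the alternatives are not given here, so these counts are no result about the family.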
